A study of Homo sapiens with 8 samples.

Results

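The immunoglobulin loci are the stretches of the genome from which B cells assemble antibody genes, and their chromatin was described here from ChIP-seq of HT and SUDHL6, established lines of human diffuse large B cell lymphoma. Each line was grown in RPMI medium with serum and without any treatment, and each was assayed with antibodies to H3K4me3, H3K27me3 and EZH2, with 1 library for each line and antibody. The regions were all islands of enriched signal that overlapped the heavy chain locus IGH (chromosome 14, 106030000 to 107290000), the kappa light chain locus IGK (chromosome 2, 89150000 to 90280000) or the lambda light chain locus IGL (chromosome 22, 22380000 to 23270000) on hg19, a choice that uses position only. Of the 58757 islands in the 6 lists, 112 met this rule. H3K4me3 contributed 10 of 10914 islands in HT and 25 of 13736 in SUDHL6. H3K27me3 contributed 50 of 16919 in HT and 23 of 13159 in SUDHL6. EZH2 contributed 2 of 2523 in HT and 2 of 1506 in SUDHL6. Without replicates, no test between the lines was possible. The sources used here do not give the sequencing depth. A position without an island is therefore one where none was called, and not one shown to lack the mark.

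Each locus has a variable part, with many similar V segments, and a constant part that encodes the antibody class or the light chain type. A B cell joins one V segment to a J segment, with a D segment between them in the heavy chain, and deletes or inverts the DNA between them. Enhancers near the J segments and the constant genes then drive transcription of the joined gene. H3K4me3 marks active promoters, whereas H3K27me3 marks chromatin repressed by Polycomb and is written by EZH2, the catalytic subunit of Polycomb repressive complex 2. RefSeq lists 48 V, 27 D and 6 J segments and 9 constant genes for IGH, 44 V and 5 J segments and 1 constant gene for IGK, and 37 V and 7 J segments and 4 constant genes for IGL. It further lists 79, 32 and 36 V pseudogenes in IGH, IGK and IGL. In the order of position the heavy chain constant genes run IGHA2, IGHE, IGHG4, IGHG2, IGHA1, IGHG1, IGHG3, IGHD and IGHM, so that IGHM, the gene of IgM, lies next to the J segments. IGL also holds 6 protein-coding genes, among them VPREB1, which encodes part of the surrogate light chain of precursor B cells, PRAME, a tumour antigen gene, and IGLL5 near the J segments and constant genes.

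Those counts and that order come from GRCh38.p14, and no gene position on hg19 was used. Islands are therefore placed by their coordinates and by an approximate division of each interval. The constant part was taken as the lowest 0.3 Mb of IGH, the lowest 0.03 Mb of IGK and the highest 0.04 Mb of IGL, from the known orientation of the loci. The reference sequence carries the unrearranged loci. In a line that has rearranged a locus, DNA between the joined segments is missing or inverted on that allele, and near-identical V segments limit where reads can be placed. The names of the H3K27me3 lists say "norm" where those of the other antibodies say "uniqnorm", and the sources do not explain either word. The part of rearrangement and repeats in any difference below was not tested. Markers of B cells and of other cell types were not checked, because that needs gene positions on hg19.

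**Figure D1:**
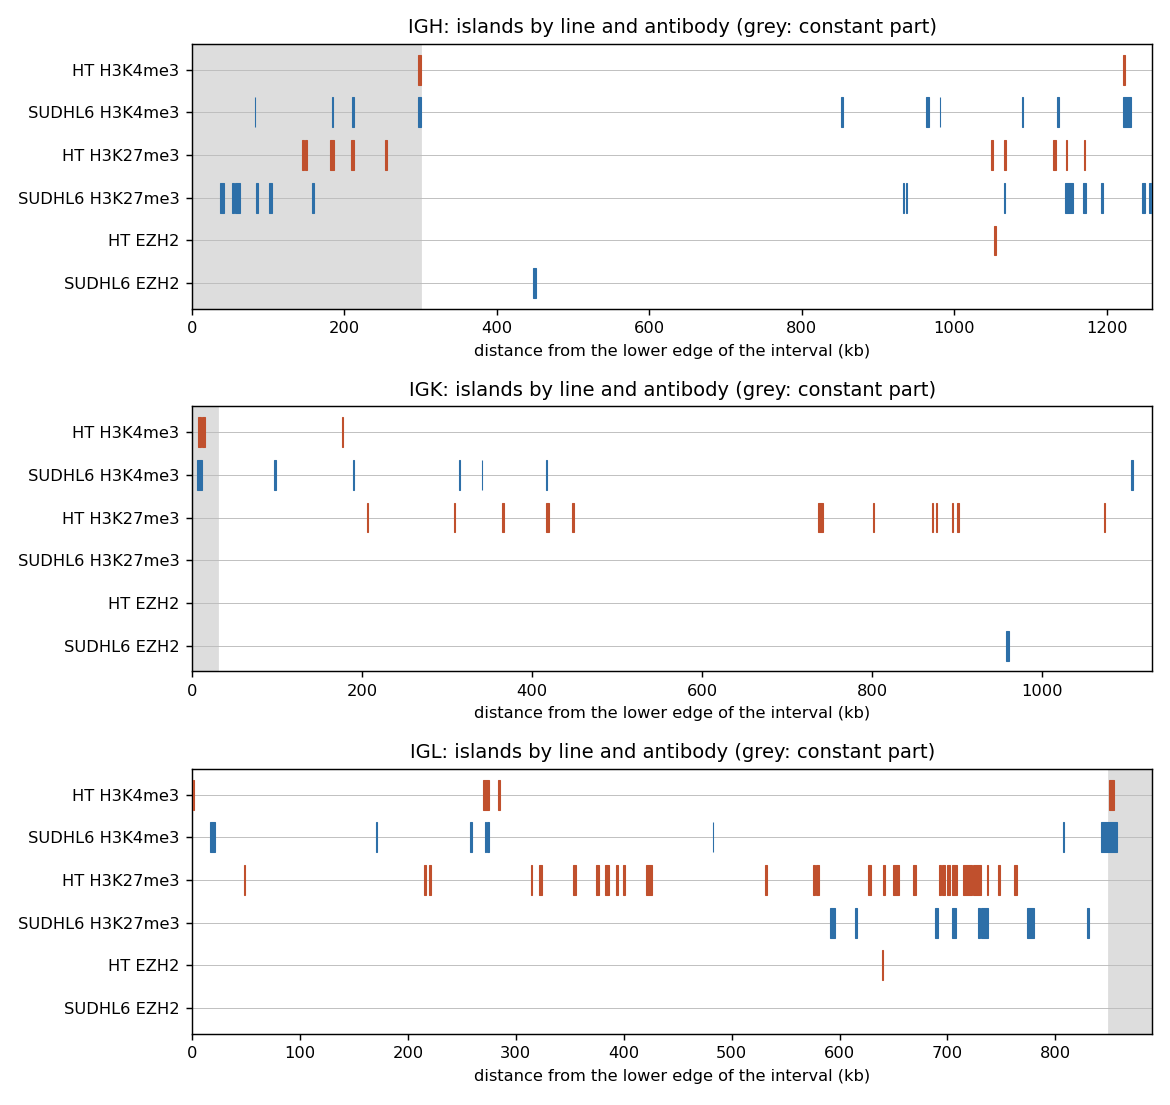
Islands of each line and antibody (rows) along IGH, IGK and IGL, by distance in kb from the lower edge of each interval; each block is 1 island drawn to scale with HT in orange and SUDHL6 in blue, and grey marks the constant part. H3K4me3 of both lines sits at the border or inside of every constant part, and H3K27me3 of IGK and IGL lies only in the variable part. The variable part makes up 1100 of 1130 kb of IGK and 850 of 890 kb of IGL.

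H3K4me3 was called at the border of the constant part of IGH and IGL and within that of IGK in both lines, and these islands held the highest H3K4me3 score of each locus. In IGH an HT island spanned 106326451 to 106330800 (4350 bp) and a SUDHL6 island spanned 106326601 to 106330500 (3900 bp), so that their starts were 150 bp and their ends 300 bp apart. The authors' score, a whole number per island that is read here only within its own list, was 229 in the HT list, where it ranked 161 of 10914, and 403 in the SUDHL6 list, where it ranked 69 of 13736. Per kb of width, the SUDHL6 island ranked 38 in its list and the HT island ranked 1253 in its list. Both islands cross the line taken as the border of the constant part, the end at which IGHM lies.

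In IGK the H3K4me3 islands lay in the constant part, where RefSeq has the single gene IGKC, the kappa constant gene. HT had islands from 89157001 to 89160150 (3150 bp, score 115) and from 89162251 to 89165550 (3300 bp, score 91). SUDHL6 had 1 island from 89155501 to 89161350 (5850 bp, score 336), which covered the whole first HT island and ended 0.9 kb before the second. The SUDHL6 island was wider than 96.8% of its list and scored higher than 99.0% of it, whereas the first HT island was wider than 80.2% and scored higher than 80.4% of the HT list. H3K4me3 covered 21.5% of the constant part of IGK in HT and 19.5% in SUDHL6, against 0.095% and 0.791% of the variable part.

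In the lambda locus, H3K4me3 at the border of the constant part was narrower in HT than in SUDHL6. HT had an island from 23229751 to 23232300 (2550 bp, score 140) and another from 23232901 to 23234100 (1200 bp, score 25). In SUDHL6 a single island from 23222401 to 23237550, 15.15 kb wide, took in both HT islands and reached beyond them on each side. Its score of 1164 was rank 3 of 13736 in the SUDHL6 list, and its width was rank 37. HT H3K4me3 covered 24.8% of its length. The segment lies at the border of the constant part, the end of the locus where RefSeq places IGLL5. HT had 0 H3K4me3 islands of at least 10 kb among 10 in the loci, and SUDHL6 had this 1 among 25. Over the whole lists, 0.486% of HT and 0.677% of SUDHL6 H3K4me3 islands were that wide.

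**Figure D2:**
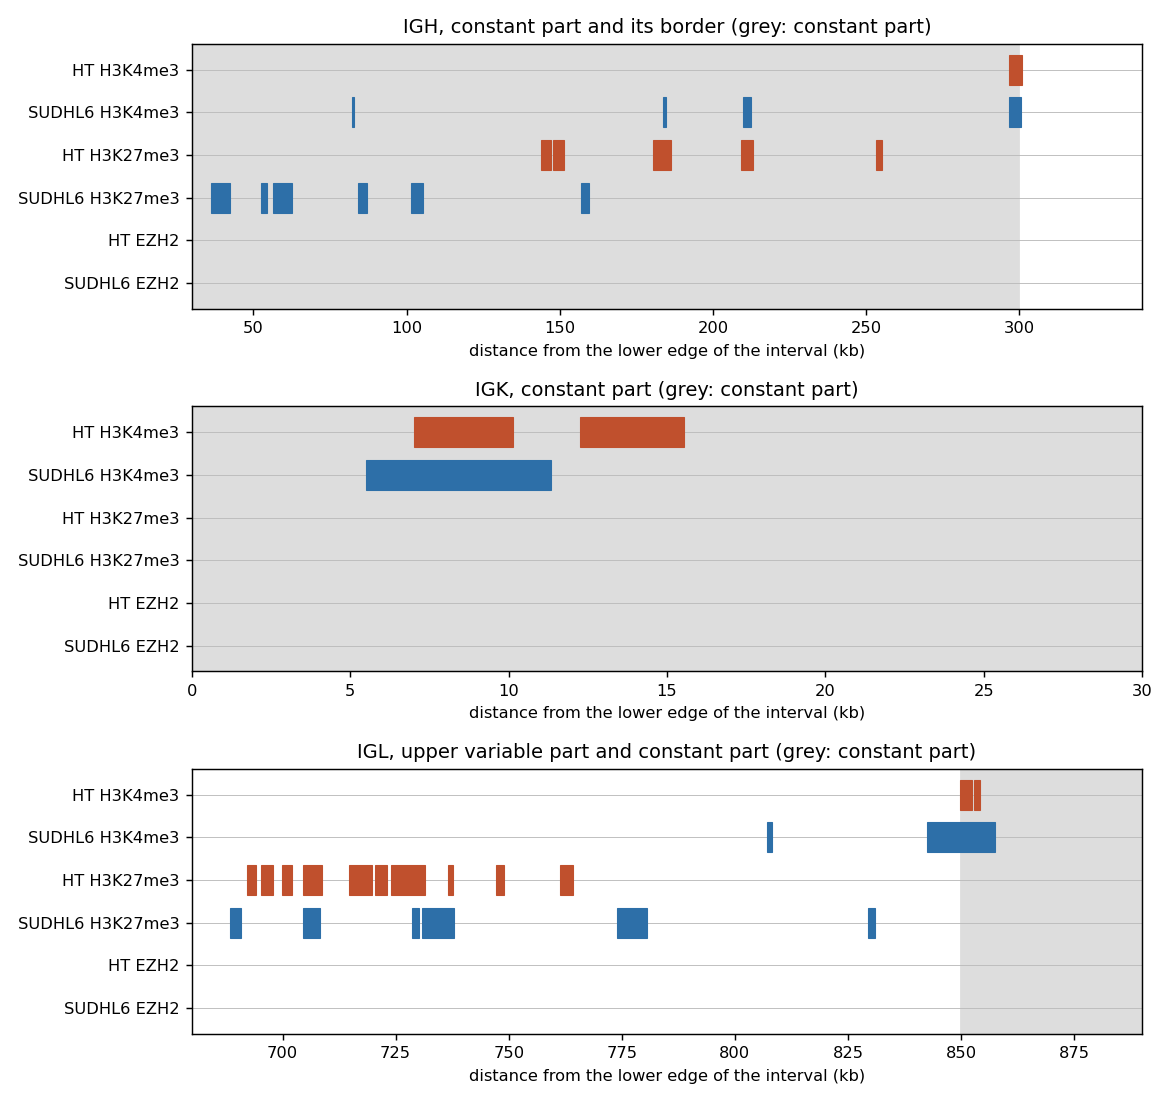
Close view of the constant parts, with islands of each line and antibody (rows) by distance in kb from the lower edge of each interval; HT is orange, SUDHL6 is blue and grey marks the constant part. The SUDHL6 H3K4me3 island of 15.15 kb in IGL contains the HT islands of 2550 and 1200 bp, and the IGH islands of both lines start within 0.15 kb of each other.

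Within the constant part of IGH, away from its border, SUDHL6 had 3 H3K4me3 islands and HT had 0. They spanned 106112101 to 106112850 (score 20), 106213801 to 106214700 (score 21) and 106239901 to 106242450 (score 153). The third was above the median SUDHL6 score of 61, whereas 2.34% and 3.31% of the list scored lower than the first and the second. HT carried H3K27me3 at the last 2 of these positions. An HT H3K27me3 island from 106210501 to 106216200 contained the whole of the second, and one from 106239001 to 106242900 contained the whole of the third. Such opposite marks in the 2 lines were seen at 3 of 25 SUDHL6 H3K4me3 islands of the loci, or 12% (exact 95% interval 2.55 to 31.2%), against 4.48% of the whole SUDHL6 list. The third of them lay in the variable part of IGK, where HT H3K27me3 covered 25.0% of a SUDHL6 island from 89566051 to 89567250. The reverse, HT H3K4me3 in SUDHL6 H3K27me3, was seen at 0 of 10 islands, against 3.02% of the HT list. Taking 3 counts of the total as the limit that a count of 0 allows, here and below, this allows up to 30%.

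Most H3K4me3 of the variable parts was called in SUDHL6. It covered 0.333% of the variable part of IGH in HT and 2.16% in SUDHL6, and 1.12% and 2.38% of that of IGL, against 0.892% and 1.15% of the autosomes. These shares include the stretch of each border island that lies on the variable side. Of the SUDHL6 island of 15.15 kb in IGL, 7.55 kb counted as constant and the rest as variable. H3K4me3 covered 9.55 kb of the variable part of IGL in HT and 20.2 kb in SUDHL6. Most of that difference is the variable stretch of this 1 island. The variable part of IGK lay below the autosomes in both lines. In IGH, HT had 1 variable island, from 107251651 to 107254050 (score 111), and SUDHL6 had 6. The widest of these, from 107251801 to 107261250 (9450 bp, score 242), overlapped the HT island near the far end of the locus. The next were at 106993501 to 106996800 (3300 bp, score 90) and 106881301 to 106884450 (3150 bp, score 56), and the nearest HT H3K4me3 was 254.9 kb and 367.2 kb away. In IGK, HT had 1 variable island, from 89326651 to 89327700 (score 34), and SUDHL6 had 6 others with scores of 19 to 78, none of which overlapped it. The widest were at 90254701 to 90257250 (2550 bp, score 40) and 89246701 to 89248950 (2250 bp, score 78). One SUDHL6 island, from 89490601 to 89490750, was a single window of 150 bp.

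In the variable part of IGL an HT H3K4me3 island was wider than the SUDHL6 islands it met. The HT island from 22649701 to 22655400 (5700 bp, score 138) was wider than 97.8% of its list and overlapped 2 SUDHL6 islands, from 22651801 to 22652850 (score 41) and from 22653451 to 22654950 (score 40). HT had 2 more variable islands, at 22380451 to 22382100 (score 29) and 22663501 to 22665450 (score 35). SUDHL6 had 5 more, of which the widest spanned 22396351 to 22401300 (4950 bp, score 70), and the others, among them one at 22637401 to 22639200 (1800 bp, score 41), scored 19 to 41.

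**Figure D3:**
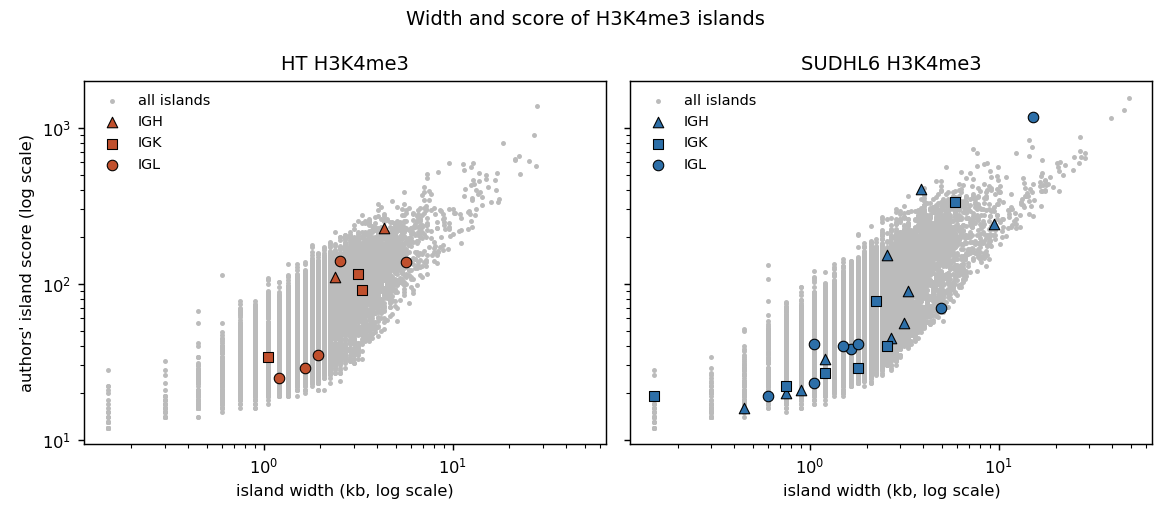
Width in kb (log scale) against the authors' score (log scale) of every H3K4me3 island of HT (left) and SUDHL6 (right), with all islands in grey and those of IGH, IGK and IGL as triangles, squares and circles. The SUDHL6 lambda island, 15.15 kb wide with a score of 1164, is outscored by 2 islands of its list, both wider, and the HT islands of the loci score between 25 and 229.

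Taking the loci whole, H3K4me3 covered less in HT than in SUDHL6 in each of them. It covered 6.75 kb in HT and 28.35 kb in SUDHL6 in IGH, 7.5 kb and 14.55 kb in IGK, and 13.05 kb and 27.75 kb in IGL. In IGL, the 1 SUDHL6 island at the border made up 15.15 of the 27.75 kb. The log2 ratio, HT over SUDHL6, was -2.07 in IGH, -0.96 in IGK and -1.09 in IGL, against -0.37 over all autosomes, where HT had the shorter H3K4me3 list as well. The neighbouring 1 Mb did not show one direction below the intervals: H3K4me3 covered 18.0 kb in HT and 17.85 kb in SUDHL6 below IGH, 7.05 kb and 33.75 kb below IGK, and 29.4 kb and 12.45 kb below IGL. Above IGH no list had an island up to the end of chromosome 14, so that side gives no comparison. Above the light chain loci H3K4me3 covered less in HT, with 25.95 kb in HT and 40.8 kb in SUDHL6 above IGK. Above IGL it covered 10.65 kb in HT and 15.15 kb in SUDHL6. A lower cover in HT was therefore not limited to the loci. Of the 10 HT islands, 6 met H3K4me3 of SUDHL6 (60%, exact 95% interval 26.2 to 87.8%) and of the 25 SUDHL6 islands, 6 met H3K4me3 of HT (24%, 9.36 to 45.1%). Over the whole lists the shares were 74.4% and 59.0%. Intervals here cover counting error only, and islands of 1 locus share a library and a region.

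**Figure D4:**
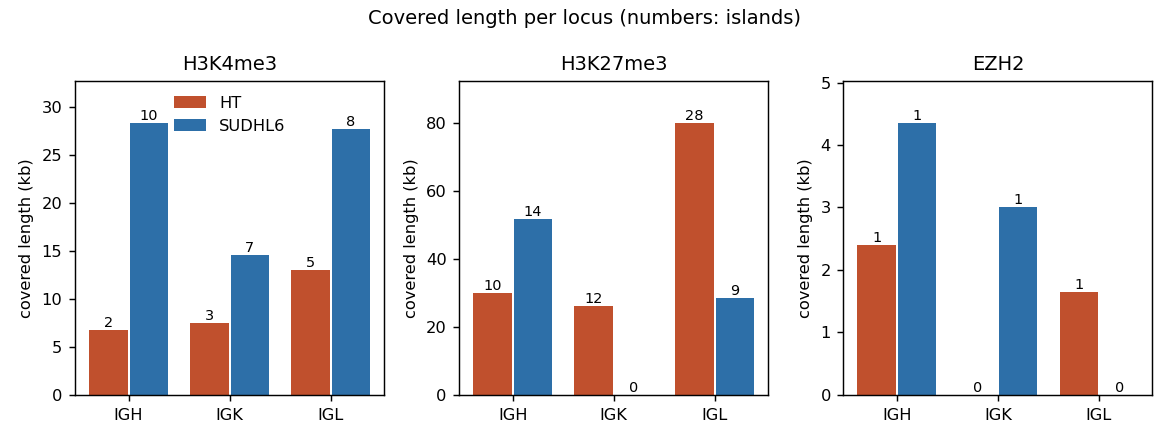
Length in kb covered by islands of HT (orange, left bar) and SUDHL6 (blue, right bar) in IGH, IGK and IGL, with 1 panel per antibody, its own axis from 0, and the number of islands above each bar. H3K4me3 is shorter in HT in all 3 loci, whereas H3K27me3 is longer in HT in IGK and IGL and shorter in IGH.

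H3K27me3 went in different directions in the heavy and light chain loci. In HT it covered 79.95 kb of IGL in 28 islands, against 28.65 kb in 9 islands in SUDHL6, and 26.1 kb of IGK in 12 islands, against 0 islands in SUDHL6. In IGH it covered 30 kb in 10 islands in HT and 51.75 kb in 14 islands in SUDHL6. The log2 ratio, HT over SUDHL6, was 1.48 in IGL and -0.79 in IGH, against 0.08 over all autosomes, and none is given for IGK with SUDHL6 at 0.

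In the lambda locus, H3K27me3 of HT reached its highest cover toward the constant end of the variable part. Counted in bins of 100 kb from the lower edge, it was called in all but the bin from 100 to 200 kb and the last. It covered 16.1 kb between 300 and 400 kb, 18.7 kb between 600 and 700 kb and 27.7 kb in 8 islands between 700 and 800 kb. The 3 widest HT islands were at 23104051 to 23111550 (7500 bp, score 139, the highest here), 23029501 to 23035500 (6000 bp, score 99) and 23094601 to 23099850 (5250 bp, score 106). SUDHL6 had none in the lower 591 kb of the interval. Its widest were at 23110801 to 23118000 (7200 bp, score 168, the highest here), 23153851 to 23160600 (6750 bp, score 154) and 23084551 to 23088300 (3750 bp, score 94). The last of these started at the same base as an HT island that ended at 23088750, with a score of 104. Neither line had an H3K27me3 island in the constant part of IGL, which is 40 of its 890 kb, or above 23211000 within the interval.

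H3K27me3 cover of IGL in HT came to 89.8 kb per Mb, 4.63 times the autosome density of that list. Of 2586 autosomal windows of 1 Mb that held an island of any list, 4.45% had as much or more. This cover was not limited to the locus. The neighbouring 1 Mb held 62.8 kb below and 96.3 kb above in HT. In SUDHL6 the locus had 32.2 kb per Mb, with 28.5 kb in the 1 Mb below and 170.6 kb in the 1 Mb above. SUDHL6 thus had less H3K27me3 than HT in the locus and below it, and more above it.

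In the kappa locus all 12 HT islands lay in the variable part, which makes up 1100 of its 1130 kb. They formed a nearer group of 5 from 89355301 to 89599950 and a farther group of 7 from 89886451 to 90223800. The V segments of IGK are known to form a nearer and a farther copy of one duplicated cluster, and the groups were separated by 286.5 kb with no island of any antibody in either line. Whether hg19 has sequence throughout that stretch was not checked, so its lack of islands is not read as a trait of chromatin. Most of the 12 islands were narrow and low in score, with a median width of 1650 bp against 2550 bp over the HT list and a median score of 30 against 49. The widest, at 89886451 to 89892150 (5700 bp, score 134), scored higher than 90.9% of the list. The next widest were at 89566951 to 89570400 (3450 bp, score 57), also above both medians of the list, and 89597551 to 89599950 (2400 bp, score 31). For SUDHL6 the nearest H3K27me3 islands outside the interval were 652.6 kb below and 170.8 kb above. In the neighbouring 1 Mb, H3K27me3 covered 7.5 kb in HT and 2.7 kb in SUDHL6 below IGK. Above IGK it covered 16.5 kb in HT and 9.9 kb in SUDHL6. A higher H3K27me3 cover in HT was therefore not limited to the locus. Among the 1 Mb windows that held an island of any list, 46.9% likewise held no SUDHL6 H3K27me3. A window of 1 Mb without an island was therefore common in the SUDHL6 H3K27me3 list. How common longer stretches without an island were was not counted.

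In the heavy chain locus both lines had H3K27me3 in the constant part and toward the far end of the variable part. Islands of the lines lay apart in the constant part and met at 3 places in the variable part, numbers too small to compare the parts. Over the whole lists, 21.2% of HT and 27.8% of SUDHL6 H3K27me3 islands met the other line. In the constant part, HT had 5 islands between 106173751 and 106285200, and SUDHL6 had 6 islands between 106066201 and 106189500. None of these overlapped H3K27me3 of the other line, and the gap was smallest between the HT island ending at 106181400 and the SUDHL6 island starting at 106186801, at 5.4 kb. The widest were 5700 bp in HT, at 106210501 to 106216200 (score 134), and 6450 bp in SUDHL6, at 106086301 to 106092750 (score 166). Further wide islands were those of HT at 106239001 to 106242900 (3900 bp, score 79) and 106177651 to 106181400 (3750 bp, score 103), and that of SUDHL6 at 106066201 to 106072350 (6150 bp, score 136). The highest score in HT was 140, at 106173751 to 106177050, an island that per kb ranked 96 of 16919. In the SUDHL6 constant part the highest per kb was the island at 106082401 to 106084500, ranked 128 of 13159.

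In the variable part of IGH, no H3K27me3 island lay between 106285200 and 106962751 in either line. Beyond it HT had 5 islands and SUDHL6 had 8. Of the 5 HT islands, 3 overlapped H3K27me3 of SUDHL6. The widest of SUDHL6 spanned 107175001 to 107185800 (10800 bp, score 299), and HT had a narrower island of 2400 bp inside it, from 107176051 to 107178450 (score 70). The HT island from 107200351 to 107201400 (1050 bp, score 22) also lay inside a SUDHL6 island, and SUDHL6 covered 20% of the HT island from 107095801 to 107098050 (2250 bp, score 33). HT had 0 H3K27me3 islands of at least 10 kb among 50 in the loci, and SUDHL6 had this 1 among 23. Over the whole lists 2.19% of HT and 4.61% of SUDHL6 H3K27me3 islands were that wide. In the 1 Mb below IGH H3K27me3 likewise covered less in HT, with 114.6 kb, than in SUDHL6, with 294.3 kb. Above IGH no list had an island up to the end of chromosome 14, and the length that remains there was not checked.

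**Figure D5:**
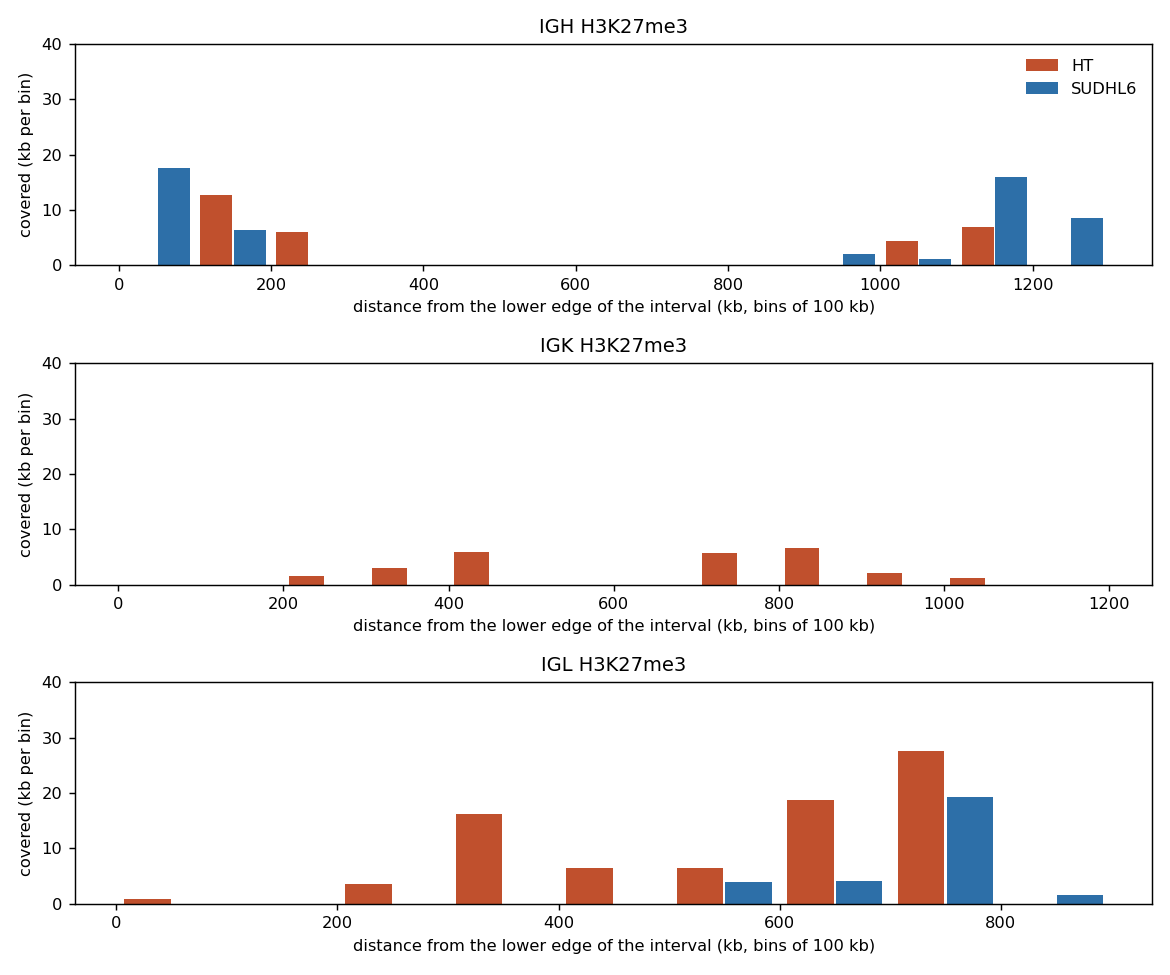
Length in kb covered by H3K27me3 of HT (orange, left bar) and SUDHL6 (blue, right bar) in bins of 100 kb along IGH, IGK and IGL; the last bin of each interval is shorter. HT covers up to 27.7 kb per bin in IGL and is the only line with H3K27me3 in IGK, and both lines have an empty middle in IGH.

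The share of H3K27me3 islands of the loci that met the other line was below that of the whole list in HT and near it in SUDHL6, with wide intervals. Of the 50 HT islands, 6 met H3K27me3 of SUDHL6 (12%, exact 95% interval 4.53 to 24.3%), and of the 23 SUDHL6 islands, 6 met H3K27me3 of HT (26.1%, 10.2 to 48.4%), with 3 in IGH and 3 in IGL on each side. The shares over the whole lists were 21.2% and 27.8%, and each lay within the interval of its line. The bases that both lines covered made up 5.41% of those that at least 1 line covered for H3K27me3 and 18.9% for H3K4me3, against 10.2% and 34.6% over the whole lists.

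The histone marks did not meet within a line. Of the 10 HT H3K4me3 islands, 0 met HT H3K27me3, which allows up to 30%, and of the 25 SUDHL6 islands, 0 met SUDHL6 H3K27me3, which allows up to 12%. The shares over the whole lists were 3.10% and 2.35%, so counts of 0 among so few islands are near the background.

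Each line had 2 EZH2 islands in the loci. Of the 1 Mb windows that held an island of any list, 53.0% held no EZH2 in HT and 73.9% held none in SUDHL6. HT had an EZH2 island in IGH from 107081851 to 107084250 (2400 bp, score 34) and another in IGL from 23019001 to 23020650 (1650 bp, score 26). SUDHL6 had EZH2 in IGH from 106477201 to 106481550 (4350 bp, score 50) and in IGK from 90107851 to 90110850 (3000 bp, score 37). All 4 were in variable parts, which make up most of each interval. They lay at least 188.6 kb from any EZH2 island of the other line, and scored below the median of their list, 53 in HT and 61 in SUDHL6. The HT lambda island overlapped H3K27me3 of HT by 1 window of 150 bp, and the other 3 overlapped no histone mark of their own line. Over the whole lists, H3K27me3 of the same line was met by 48.9% of HT and 65.5% of SUDHL6 EZH2 islands, and H3K4me3 by 33.8% and 16.5%. EZH2 of the other line was met by 11.5% and 19.4%. Of the H3K27me3 islands, 1 of 50 in HT (2%, exact 95% interval 0.051 to 10.6%) and 0 of 23 in SUDHL6 (which by the limit of 3 counts allows up to 13.04%) overlapped EZH2 of the same line. Over the whole lists these shares were 7.77% and 9.45%. By locus, EZH2 covered 0.488 times its autosome density in HT and 1.1 times in SUDHL6 in IGH, 0 and 0.848 times in IGK, and 0.475 and 0 times in IGL. As much EZH2 as in IGH was held by 45.1% of the same 1 Mb windows in HT and 19.5% in SUDHL6, and as much as SUDHL6 had in IGK by 23.1%. Over all 3 loci EZH2 covered 0.316 times its autosome density in HT and 0.716 times in SUDHL6, whereas H3K27me3 covered 2.14 and 1.34 times its own.

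Large stretches carried no island of any list, and gaps in the hg19 sequence within them were not checked. The longest in IGH ran from 106481551 to 106881300 (399.8 kb) inside the variable part, followed by 106330801 to 106477200 (146.4 kb), which starts where the HT H3K4me3 island at the border ends. In IGL the longest was 121.1 kb, from 22429051 to 22550100.

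At the edges set by the intervals, the SUDHL6 H3K27me3 island from 107284951 to 107289450 ended 0.55 kb inside the upper edge of IGH, and the HT H3K4me3 island at 22380451 started 0.451 kb inside the lower edge of IGL. The nearest H3K4me3 islands outside IGK were 15.2 kb above it in HT, from 90295201 to 90298200, and 13.7 kb above it in SUDHL6, from 90293701 to 90299550.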

How the data were processed

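ChIP-seq islands of H3K27me3, EZH2 and H3K4me3 in HT and SUDHL6 were analysed; the 2 input samples were not used here. The caller SICER and the build hg19 come from the submitters' processing notes. Window (150 bp), gap (450 bp) and FDR (1e-07) come from the names of the deposited files. Islands were called per library. Aligner, read filters, control and depth: not given in the sources used here. For each list, the deposited score of each island is the authors' value, with no stated unit. Deposited starts and ends count from 0 with the end included; positions here count from 1. All 58757 islands lay on the 150 bp grid.

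Islands were assigned by an overlap of at least 1 bp with an interval, covered length was clipped to it, and shares have exact (Clopper-Pearson) 95% intervals. For a share of 0, the limit given is 3 counts of the total, a rule that lies slightly below the exact upper bound. Autosome density is covered length over the span from the first to the last island of chromosomes 1 to 22. Windows of 1 Mb without an island of any list were left out of the shares of windows. The named islands follow a rule: the 3 widest and the highest score by locus, antibody and line, every EZH2 island and every H3K4me3 island of the constant part. Others named were chosen after their values were seen. The loci, lists and alternatives were chosen with earlier results of these data known. The overlap steps were tested on simulated islands, and 100% were classed rightly at each list size. Computation used scipy 1.17.1 and numpy 2.4.6 under Python 3.11.15, and plots used matplotlib 3.10.9.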

Additional observations from a re-analysis of the deposited data

How the results depend on the processing

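Of 204 values recomputed under the alternatives, 156 stayed within 1.5 times the count or within the exact 95% interval of the value, and 0 of the log2 ratios of H3K4me3 changed sign. Some could not have moved, since a count or share of 0 cannot rise when islands are dropped or overlap is made stricter. For covered length and log2 ratios the interval counted windows of 150 bp as if independent, although windows of 1 island are not. It served as a yardstick and not as an error between libraries. Log2 ratios of H3K27me3 were not recomputed, but under the 4 alternatives that change covered length its length stayed lower in HT in IGH and higher in HT in IGL. With only the higher-scoring 50% of each list kept, HT and SUDHL6 had 6 and 8 H3K27me3 islands in IGH (22.5 and 41.55 kb) and 18 and 3 in IGL (63.9 and 17.7 kb), and HT had 2 in IGK (9.15 kb). H3K4me3 islands were 4 in SUDHL6 in IGH (19.2 kb), 2 in SUDHL6 in IGK (8.10 kb) and 2 in both HT and SUDHL6 in IGL (8.25 and 20.1 kb). The log2 ratio of H3K4me3 was -1.51 in IGH and -0.33 in IGK, so most of the kappa difference between the lines is lost without the low-scoring islands. EZH2 islands were 0 (0 kb) in HT in IGH and IGL and in SUDHL6 in IGH and IGK, the shared share of SUDHL6 H3K4me3 was 50%, and the share of HT H3K27me3 with EZH2 was 0%.

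With intervals widened by 100 kb, EZH2 islands in IGH were 5 in HT (17.55 kb) and 3 in SUDHL6 (33.3 kb), HT EZH2 had 1 island in IGK (4.65 kb), H3K4me3 in IGK had 6 islands in HT (15.15 kb) and 11 in SUDHL6 (40.8 kb), and H3K27me3 covered 54.45 kb in HT and 88.35 kb in SUDHL6 in IGH. The nearest EZH2 islands below IGH were 33.55 kb from its edge in HT and 29.5 kb in SUDHL6. With islands within 5 kb joined, H3K27me3 covered 61.65 kb of IGH in SUDHL6, 33.9 kb of IGK in HT and 100.4 kb of IGL in HT, since gaps are then counted as covered. With at least 50% of an island required to overlap, the shared share of SUDHL6 H3K27me3 was 8.70%, and HT H3K27me3 with EZH2 and HT EZH2 with H3K27me3 were both 0%.

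With 1 library per line and antibody and no stated depth, calling and line cannot be told apart. No paired analysis was possible because the result comes from no test and each group has 1 library.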
